A study of Mus musculus with 4 samples.

Results

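The genes described here are 10 neuropeptide precursors, Tac2, Tac1, Npb, Npy, Sst, Cck, Penk, Vip, Cartpt and Pdyn, out of 31055 genes counted in single cells of the mouse hippocampus. Tac2 and Npb were chosen by their measured values, since Tac2 is low and Npb high in both Dp(10)2Yey libraries, and the other 8 were added for comparison because they mark kinds of neuron. The difference of Tac2 and of Npb between genotypes is therefore a description and carries no test. The animals were 2 male Dp(10)2Yey mice, hemizygous for a duplication of part of mouse chromosome 10, and 2 male wild-type (WT) littermates, all aged 3 months and on the C57BL/6J background. One mouse of each genotype was prepared on each of 2 days, but nothing states which replicates belong to the same day. Each mouse gave 1 library from its dissociated hippocampi, so that p-values measure the spread between 2 mice per genotype. The duplication is present in every tissue of the mouse, not in a chosen cell type.

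Neuropeptides are cut from longer precursor proteins inside the secretory pathway, stored in dense core vesicles and released to act on G protein-coupled receptors of neighbouring cells. In the hippocampus, somatostatin, neuropeptide Y, cholecystokinin and vasoactive intestinal peptide are known as labels of different GABAergic interneurons, cholecystokinin is also made by pyramidal cells, and dynorphin and enkephalin are opioid peptides. Tac2 encodes the precursor of neurokinin B, Tac1 that of substance P and neurokinin A, and Npb that of neuropeptide B, a ligand of the receptors NPBW1 and, in humans, NPBW2.

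The stretches that encode the mature peptides of the 3 precursors on which the results turn are shown to let the tachykinins be compared with each other and with neuropeptide B. They were read from GRCm38 on the plus strand, 5′ to 3′. Capitals mark the last 5 codons of each tachykinin, which spell the family's shared ending Phe-X-Gly-Leu-Met, and the first 3 codons of neuropeptide B. Neurokinin B lies in exon 5 of 7 of Tac2 (chr10:127729116-127729145), substance P in exon 3 of 7 of Tac1 (chr6:7556732-7556764), neurokinin A in exon 6 of 7 of the same gene (chr6:7559101-7559130) and neuropeptide B in exon 1 of 2 of Npb (chr11:120608572-120608658).
neurokinin B (Tac2): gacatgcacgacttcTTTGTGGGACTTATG
substance P (Tac1): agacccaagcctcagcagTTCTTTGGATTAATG
neurokinin A (Tac1): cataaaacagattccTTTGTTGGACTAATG
neuropeptide B (Npb): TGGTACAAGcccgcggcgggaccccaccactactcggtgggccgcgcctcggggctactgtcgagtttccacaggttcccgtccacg
The tachykinin ending occurred 1 time in the 116 codons of the Tac2 precursor and 2 times in the 130 codons of the Tac1 precursor. Npb, with 119 codons, does not hold it. Penk, with 268 codons, carries 6 copies of Met-enkephalin and 1 of Leu-enkephalin, and Pdyn, with 248 codons, carries 3 copies of Leu-enkephalin.

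None of the 10 genes lies in the duplicated segment, taken as Prmt2 to Pdxk (chr10:76207222-78464975). Tac2 (chr10:127724478-127731768, plus strand) and Vip (chr10:5639218-5647617, plus strand) are on the same chromosome, at 49.26 Mb and 70.56 Mb from it. Npb (chr11:120608477-120609093, plus strand) is on chromosome 11. Penk (chr4:4133531-4138819, minus strand) overlaps A830012C17Rik on the plus strand, and the strand setting of the counting was not given in the sources used here, so a share of its counts could belong to that gene.

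After filtering, 6249 cells remained, from 1018 in WT replicate 1 to 2199 in Dp(10)2Yey replicate 2, with 2939108 to 8838437 UMIs (unique molecular identifiers, each a captured RNA molecule). WT replicate 1 stood apart in depth, with a median of 2081.5 UMIs per cell against 3386.5 to 3688.5 in the other 3 libraries. Of the barcode sequences, 8 occurred in 2 libraries, which gave 16 kept cells, 2 of them with a UMI of one of the 10 genes. Cells were grouped into 15 clusters without using the 10 genes, and a cluster was called by a class name only where its leading genes held markers of that class. The neuronal content of the libraries differed: markers of mature neurons summed to 847 and 1569 CPM in the WT libraries and 902 and 1162 CPM in the Dp(10)2Yey libraries. A CPM here is the number of UMIs of a gene per 1000000 UMIs of the kept cells of the library or class, and values by library are given with replicate 1 before replicate 2 of each genotype and WT first. Where a level is given without the largest cell, that cell's UMIs of the gene are left out and the UMI total is unchanged. Markers of hippocampal glutamatergic neurons were all detected, at 405, 744, 459 and 515 CPM. Among the other contents, endothelial markers were lower in both Dp(10)2Yey libraries, at 2021 and 1504 CPM in WT against 980 and 1147 CPM, and astrocyte markers were higher, at 3766 and 3684 against 4986 and 4977 CPM. Markers of neutrophils and monocytes (95.6 and 2.23 against 351 and 279 CPM), of T and NK cells (50.7 and 12.8 against 72.9 and 94.9 CPM) and of striatum (36.1 and 41.1 against 42.1 and 54.4 CPM) were also higher in both. The part of these contents in the Tac2 and Npb levels was not tested. The 408 neuron-like cells had a median of 28.1% mitochondrial UMIs and 1789 UMIs in all.

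All 10 genes had at least 1 UMI, and together they marked a small part of the tissue. A UMI of any of them was found in 620 cells, which is 9.92% of the cells as sequenced and 4.77% of the cells when each was thinned to 1000 UMIs. Of these 620 cells, 73 (11.8%) held UMIs of at least 2 of the genes and 7 held 3 or more. The median total was 3371 UMIs in cells with none of the genes, 3896 in cells with 1 and 5291.5 in cells with 2. The number of genes detected thus moved with depth, but single genes went both ways. Cells with Cck, Sst and Cartpt had medians of 3252, 2230 and 2397 UMIs, under the 3430 of all cells, and the other genes were above it. Cck and Npy shared 10 cells, Cck and Penk 13, Tac1 and Npy 13, and Tac2 and Npb shared 0 cells.

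**Figure D1:**
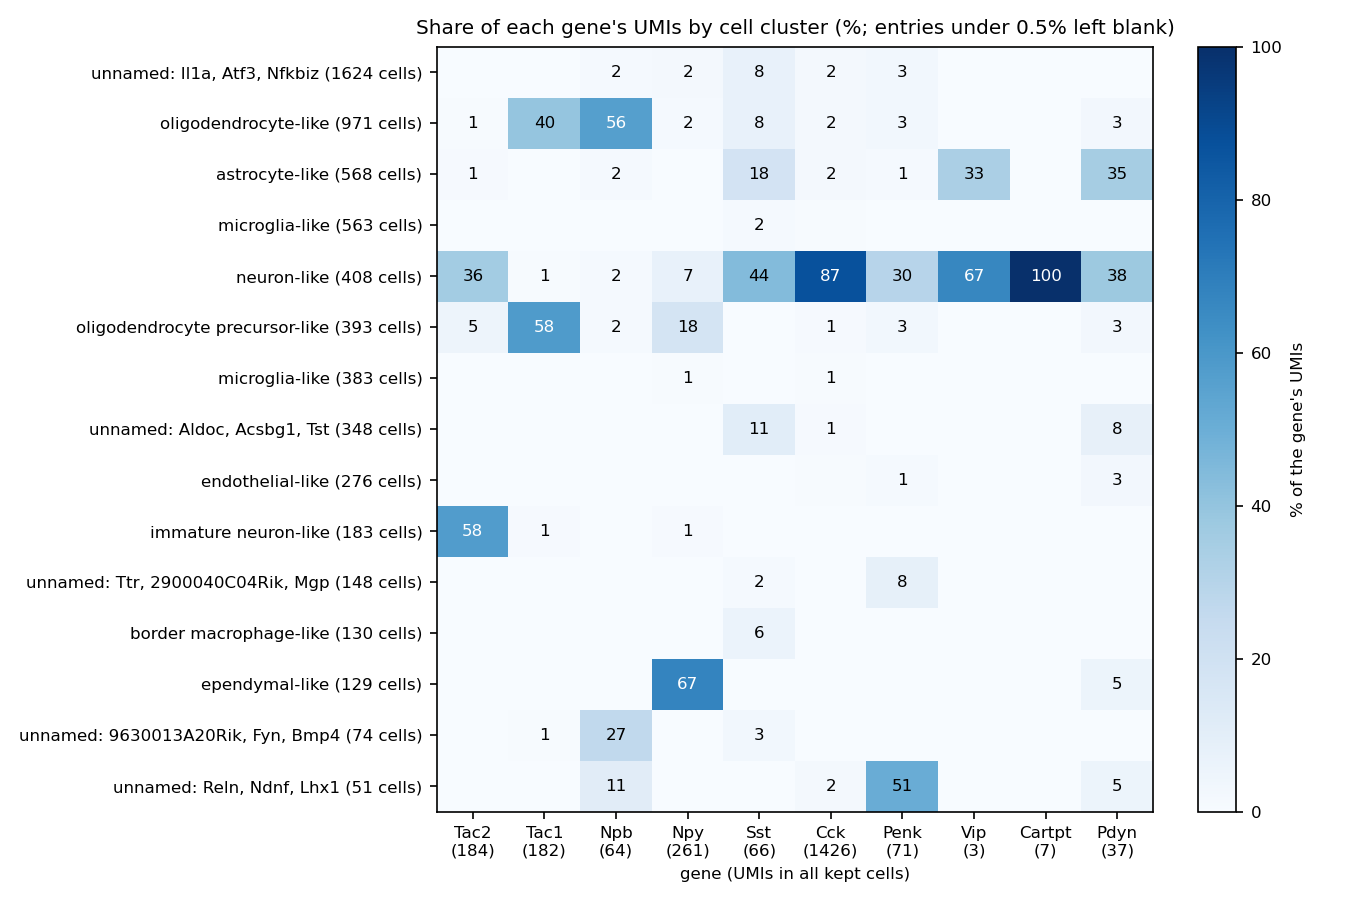
Share of each gene's UMIs (percent, colour and number) in each of the 15 clusters, all 4 libraries pooled. Cck sits in neuron-like cells (87.4%), Tac1 in oligodendrocyte precursor-like and oligodendrocyte-like cells, and Npy in ependymal-like cells. Tac2 sits in immature neuron-like cells and, in WT replicate 2 alone, in neuron-like cells.

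Tac2, the neurokinin B gene, was most often found in immature neuron-like cells. Its 184 UMIs came from 38 cells, of which 31 were immature neuron-like and held 106 UMIs (57.6%). A UMI of Tac2 was found in 16.9% of the 183 immature neuron-like cells (exact binomial 95% interval 11.8 to 23.2). The neuron-like cluster held a further 66 UMIs in 3 cells, all of them in WT replicate 2. Oligodendrocyte precursor-like cells held 9 in 2 cells, and astrocyte-like and oligodendrocyte-like cells 2 and 1 UMIs in 1 cell each. Among 946 microglia-like cells, which serve here as the background that free RNA gives, Tac2 had a UMI in 0 cells, which allows a share of up to 0.317%. Their median depth was 1236 UMIs, against 3786 in immature neuron-like cells, and the 1624 cells of the cluster led by Il1a, with a median of 4269 UMIs, also held no Tac2 UMI. These intervals and limits cover counting error only.

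Tac2 counted 55 and 98 UMIs in the WT libraries and 12 and 19 in the Dp(10)2Yey libraries, or 18.7 and 14.6 CPM against 2.40 and 2.15 CPM. Both WT libraries were above both Dp(10)2Yey libraries, at 16.6 ± 2.92 against 2.27 ± 0.174 CPM (mean ± SD, n = 2 mice each). The pooled ratio of WT to Dp(10)2Yey was 7.07, and the fitted log2 fold change of edgeR was -2.87. Tac2 was chosen by these levels, so no interval or SE is given with them. In such sums, fewer cells with the transcript and less RNA per cell cannot be told apart.

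A few cells carried much of the Tac2 signal. The cell with the most Tac2 held 34 of 55 and 58 of 98 UMIs in the WT libraries, and 8 of 12 and 6 of 19 in the Dp(10)2Yey libraries. Without the largest cell of each library, the levels were 7.15, 5.95, 0.799 and 1.47 CPM, and the ratio of WT to Dp(10)2Yey was 5.14. Cells with a Tac2 UMI numbered 7, 17, 4 and 10, or 0.688%, 1.01%, 0.296% and 0.455% of the cells. Both WT shares were above both Dp(10)2Yey shares, and they come from the same counts as the levels.

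**Figure D2:**
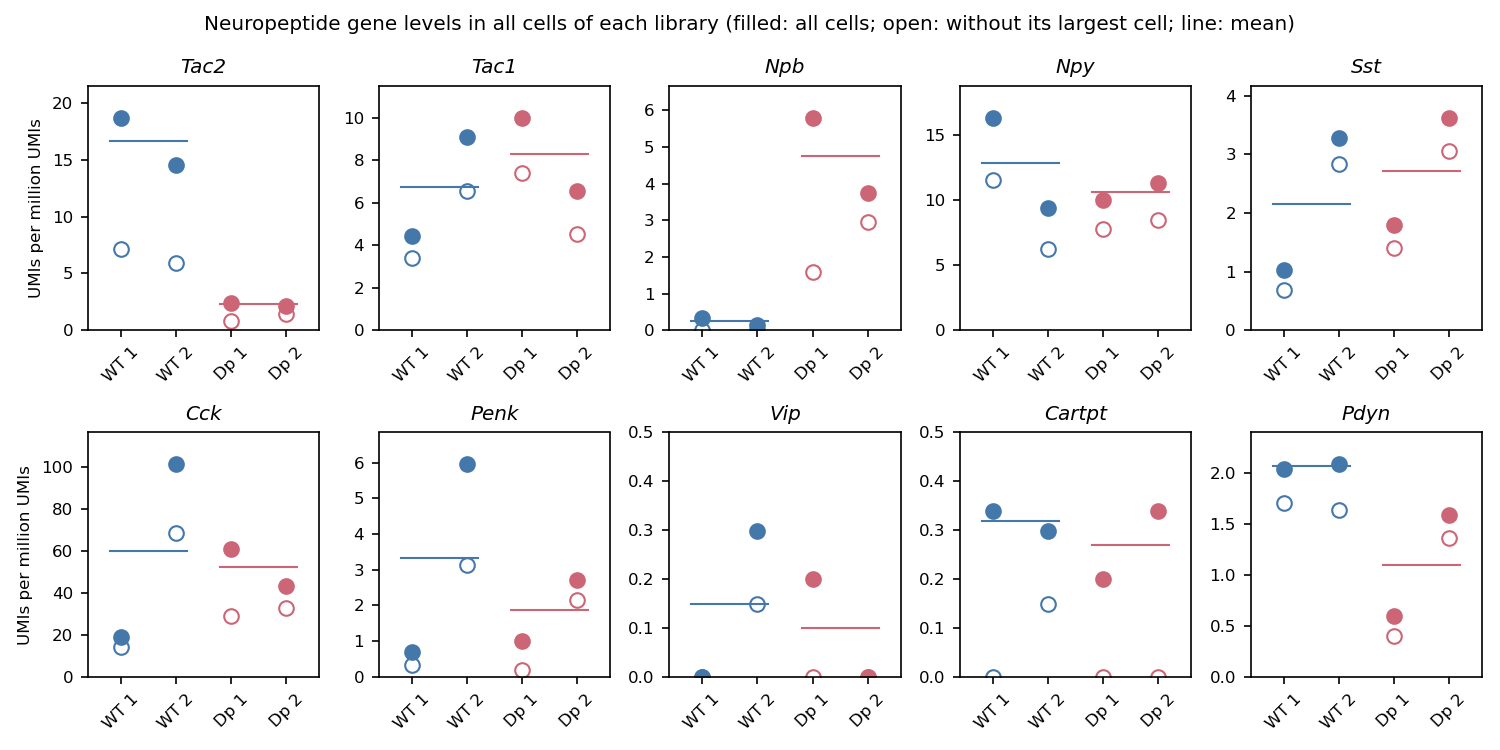
CPM (UMIs of the gene per 1000000 UMIs of the library) for each of the 10 genes in the 4 libraries, 1 point per library, WT and Dp(10)2Yey (Dp) apart. Filled points use all cells, and lines are the means of the filled points. Open points leave out the gene's UMIs in the cell with the most, with the UMI total of the library unchanged. Tac2 is higher and Npb lower in both WT libraries, the Pdyn levels are lower in both Dp(10)2Yey libraries, and the other genes overlap.

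The largest Tac2 cells were of different kinds. The cell with 58 UMIs, in WT replicate 2, was neuron-like and held 361 UMIs of Cnr1, the cannabinoid receptor of cholecystokinin interneurons, 221 of Cck, 32 of Slc32a1 (the vesicular GABA transporter), 17 of Gad1 and 13 of Gad2, which make GABA, and 0 of Slc17a7, the glutamate transporter of pyramidal cells. A second neuron-like cell of the same library held 7 UMIs of Tac2, 25 of Cck, 9 of Cnr1 and 1 of Gad2. The cell with 34 UMIs, in WT replicate 1, was immature neuron-like, with 15 UMIs of Igfbpl1 and 14 of Sox11, both known from newborn neurons. The largest Dp(10)2Yey cell, with 8 UMIs, held 31 UMIs of Neurod1, a transcription factor of differentiating granule neurons, 31 of Sox11 and 7 of Calb2, which encodes calretinin. A cell of WT replicate 1 with 8 UMIs grouped with oligodendrocyte precursors and carried markers of both kinds, with 11 UMIs of Pdgfra and 29 of Sox11. It was not called a doublet.

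Immature neuron-like cells are most of the cells that gave the library levels of Tac2, so their values describe the same difference and add no separate support. Their Tac2 level was lower in both Dp(10)2Yey libraries. Tac2 made up 578 and 136 CPM of the class in the WT libraries and 65.5 and 48.3 in the Dp(10)2Yey libraries. Without the largest cell of each library these became 160, 108, 17.9 and 33.1. A Tac2 UMI was found in 6 of 26, 12 of 50, 3 of 32 and 10 of 75 immature neuron-like cells, or 23.1%, 24.0%, 9.38% and 13.3%. With each cell thinned to 1000 UMIs, and shallower cells left out, the shares were 19.0%, 14.9%, 3.45% and 6.67%. The class itself took 2.55% and 2.97% of the cells in the WT libraries and 2.37% and 3.41% in the Dp(10)2Yey libraries, and its 12 markers summed to 1313, 1426, 1412 and 1512 CPM, overlapping between genotypes.

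**Figure D3:**
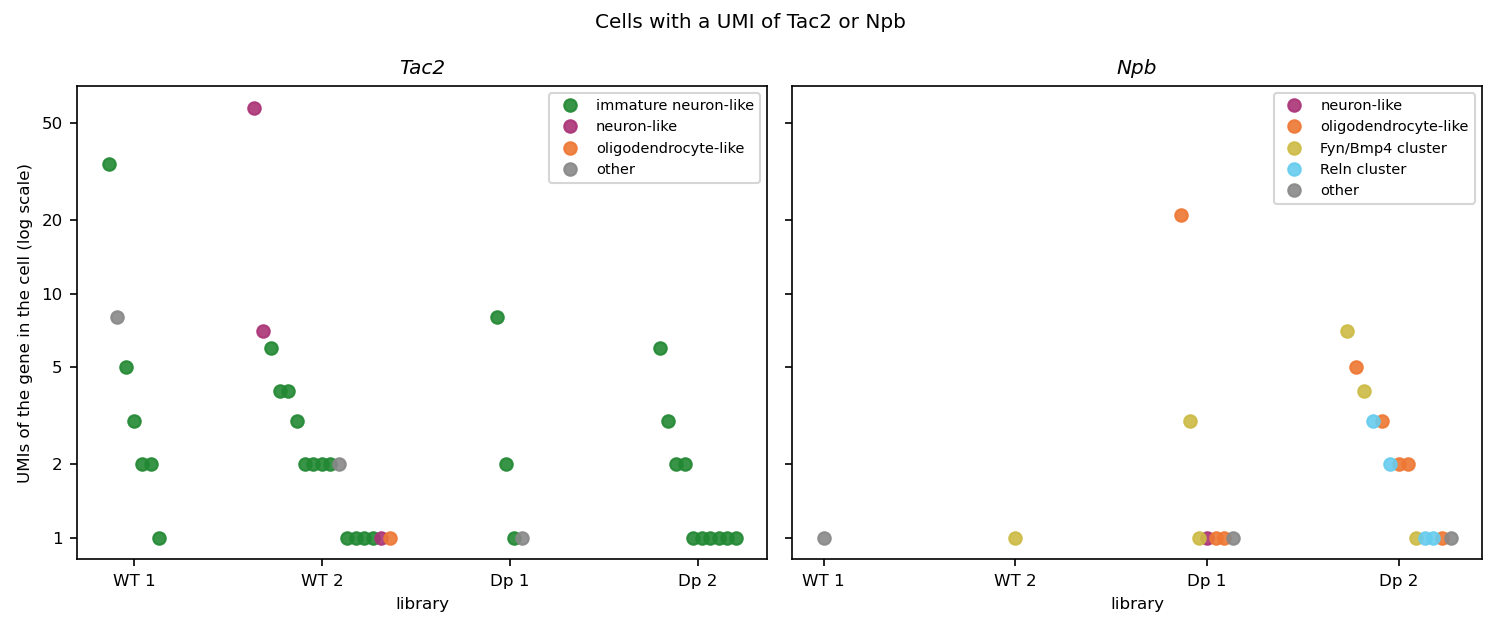
Each cell with a UMI of Tac2 or Npb, by library, with its UMIs of the gene on a log axis and its class as colour (Fyn/Bmp4 and Reln are the clusters led by those genes, Dp is Dp(10)2Yey). Tac2 cells are mostly immature neuron-like in all 4 libraries, and all but 2 of the 22 Npb cells are in the Dp(10)2Yey libraries.

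Immature neuron-like cells with and without Tac2 differed in the markers they held. Of the 31 cells with Tac2, 83.9% also held Neurod1, against 43.4% of the 152 cells without it, and the shares for Calb2 were 71.0% and 34.9%. Tbr1, a factor of postmitotic glutamatergic neurons, was found in 35.5% and 7.89%, Igfbpl1 in 93.5% and 73.7%, Prox1, the granule cell factor, in 74.2% and 54.6%, and Eomes, of intermediate progenitors, in 35.5% and 21.7%. In all, 11 of the 12 immature neuron markers had a higher share in cells with Tac2, Draxin being the exception, and the 9 dividing cell markers each had a lower share. Gad1, Gad2, Dlx1 and Dlx2, which mark GABAergic cells, were found in 0 of 31 cells with Tac2 and in 12, 18, 22 and 22 of 152 cells without it. The median depths were 3953 and 3584.5 UMIs. Cells that hold Tac2 and genes that define the cluster come from the same clustering, so these shares are a description.

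**Figure D4:**
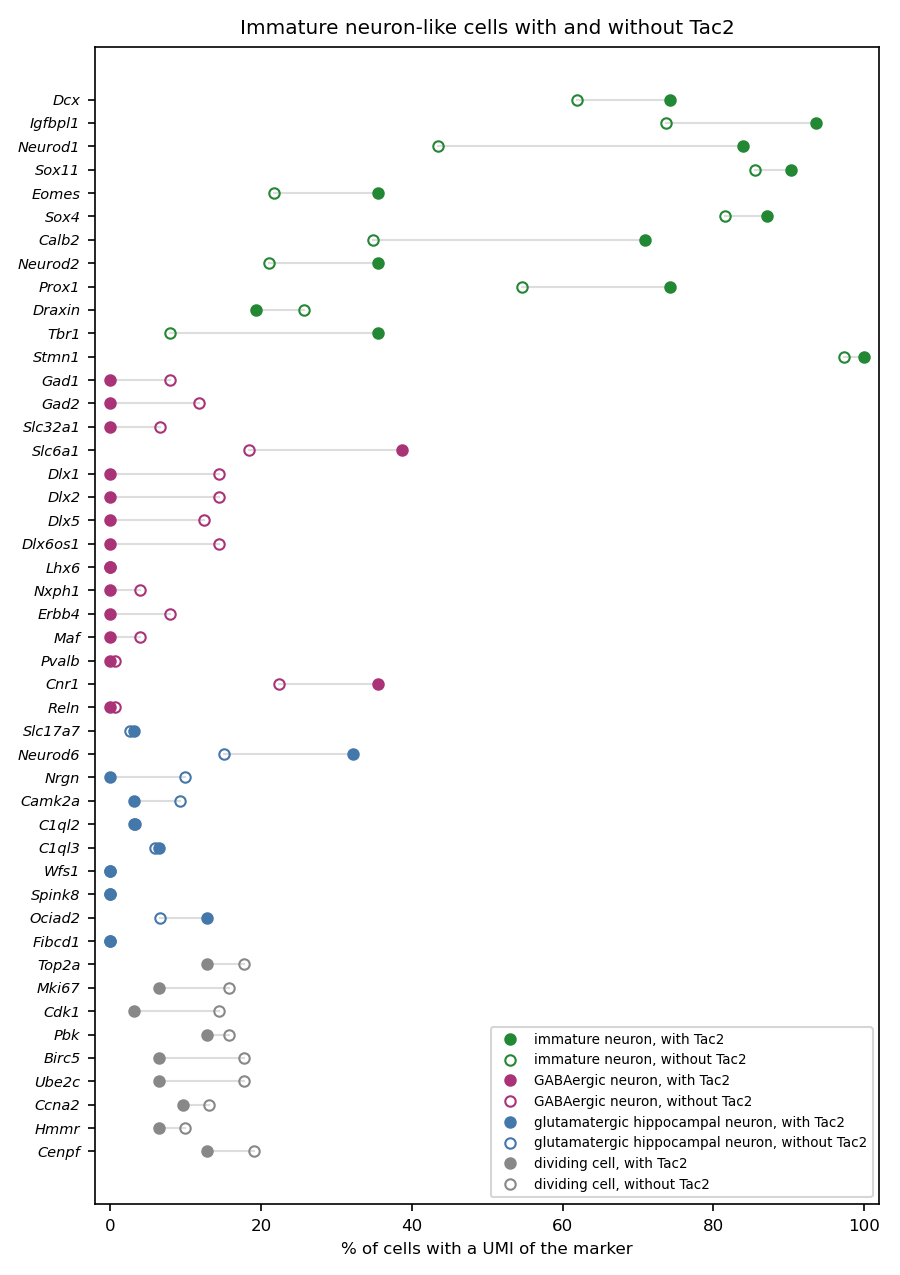
Percent of immature neuron-like cells with a UMI of each marker gene, for the 31 cells with Tac2 and the 152 cells without it, all libraries pooled. Neurod1, Calb2 and Tbr1 are more frequent in cells with Tac2, and Gad1, Gad2, Dlx1 and Dlx2 are at 0.

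The Neurod1-holding cells of the immature neuron-like class are part of the cells counted above, so their Tac2 values describe the same UMIs and add no separate support. Of 16 and 21 such cells in the WT libraries, 6 and 8 held Tac2 (37.5% and 38.1%). Of 16 and 39 in the Dp(10)2Yey libraries, 3 and 9 did (18.8% and 23.1%). The Tac2 level in these cells was 881 and 215 CPM in WT and 136 and 79.7 CPM in Dp(10)2Yey, with 1 cell holding 34 of the 47 UMIs of WT replicate 1 and 1 cell holding 8 of the 11 UMIs of Dp(10)2Yey replicate 1. Cells with a GABAergic gene made up 15.4%, 24.0%, 21.9% and 16.0% of the class, and cells with at least 2 dividing cell genes 11.5%, 22.0%, 18.8% and 22.7%.

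Over all 6249 cells, the 5 genes whose detection was most like that of Tac2 were Igfbpl1 (phi coefficient 0.39), Neurod1 (0.36), Scrt2 (0.32), Cd24a (0.29) and Nhlh1 (0.27). The phi coefficient is the correlation of having a UMI of each gene, and the points share libraries and depth. Each of the 5 shared cells with Tac2 in all 4 libraries. Medial habenula neurons are a known site of Tac2 in the brain near the hippocampus. Of 10 habenula markers, 3 had no UMI, namely Gpr151, Chrnb4 and Slc18a3. The list summed to 26.9 and 23.8 CPM in WT and 24.0 and 20.5 in Dp(10)2Yey. Vav2, with 65.8% of its UMIs in the cluster led by Il1a, made up 21.4, 16.8, 19.2 and 17.5 of these. Nwd2, at 1.02, 2.23, 0.80 and 0.91 CPM, and Slc5a7, at 2.72, 3.12, 2.40 and 1.02 CPM, were lower in both Dp(10)2Yey libraries. Vav2, Pou4f1 and Lrrc55 overlapped between genotypes, and Chrna3 and Chrnb3 had 1 UMI each, in Dp(10)2Yey replicate 1. The part of these markers in the Tac2 level was not tested.

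Npb, the neuropeptide B gene, was found in oligodendrocyte lineage cells and almost entirely in the Dp(10)2Yey libraries. Its 64 UMIs came from 22 cells. Oligodendrocyte-like cells held 36 UMIs in 8 cells, the cluster led by 9630013A20Rik, Fyn and Bmp4, whose leading genes also include Gpr17 and Enpp6 of newly forming oligodendrocytes, held 17 UMIs in 6 of its 74 cells (8.11%), and the cluster led by Reln, Ndnf and Lhx1 held 7 UMIs in 4 of its 51 cells (7.84%). The other 4 cells had 1 UMI each and fell in 4 different clusters. Microglia-like cells gave 0 of 946. The deeper cluster led by Il1a, with a median of 4269 UMIs and 78.8% of the UMIs of the microglial gene Cx3cr1, gave 1 of 1624 cells (0.0616%), and that UMI was the whole Npb count of WT replicate 1.

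Npb counted 1 UMI in each WT library and 29 and 33 UMIs in the Dp(10)2Yey libraries. The levels were 0.340 and 0.149 CPM in WT and 5.79 and 3.73 CPM in Dp(10)2Yey, or 0.245 ± 0.135 against 4.76 ± 1.45 (mean ± SD, n = 2 mice each). Both Dp(10)2Yey libraries were above both WT libraries. The pooled ratio of Dp(10)2Yey to WT was 21.6, a poorly determined value because WT had 2 UMIs in all, and the fitted log2 fold change was 4.34. Npb was chosen by these levels, so no interval or SE is given with them.

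Npb was held by 7 cells in Dp(10)2Yey replicate 1 and 13 in replicate 2, against 1 in each WT library. One oligodendrocyte-like cell held 21 of the 29 UMIs of Dp(10)2Yey replicate 1, whereas the largest cell of replicate 2 held 7 of 33. Without the largest cell of each library the levels were 0 and 0 in WT and 1.60 and 2.94 in Dp(10)2Yey. With cells thinned to 1000 UMIs, a Npb UMI was found in 1 of 715 and 0 of 1440 WT cells and in 3 of 1116 and 3 of 1840 Dp(10)2Yey cells, shares whose counting intervals overlap.

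The cells with the most Npb carried myelin genes. The cell with 21 UMIs, of 33738 UMIs in all, held 114 UMIs of Mbp and 17 of Mog, which encode myelin proteins, and 17 of Enpp6, with 0 of Opalin, a gene of mature oligodendrocytes. The cell with 7 UMIs, in the cluster led by 9630013A20Rik, held 28 UMIs of Enpp6 and 8 of Gpr17, and a cell with 5 UMIs held 73 of Opalin and 35 of Mog. Cells with Npb were deep, with a median of 9337 UMIs against 3430 over all cells. Depth moved with Npb detection, and its part in the result was not tested.

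By library, oligodendrocyte-like cells held 0, 0, 23 and 13 Npb UMIs in 127, 313, 222 and 309 cells. The cluster led by 9630013A20Rik held 0, 1, 4 and 12 UMIs in 8, 24, 17 and 25 cells. In the cluster led by Reln, all 7 UMIs were in 4 cells of Dp(10)2Yey replicate 2. Numbers of oligodendrocyte-like cells thus overlapped between genotypes, as did the summed oligodendrocyte markers at 16067, 23168, 21189 and 18947 CPM. Anapc11, which ends 279 bp upstream of Npb on the same strand, was at 136 and 140 CPM in WT and 138 and 130 in Dp(10)2Yey. The genes detected most like Npb were Il23a (phi 0.32), with shared cells in 1 library, Sema4f (0.22), Cldn14 (0.21), 9630013A20Rik (0.21) and Fcnaos (0.21), the last also with shared cells in 1 library.

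The remaining genes were tested between genotypes on UMIs summed over all cells of each library, by the quasi-likelihood test of edgeR, with p-values adjusted (Benjamini-Hochberg) over all 13803 genes that had enough counts. No gene passed an adjusted p under 0.01 (0% of those tested), and 390 had an unadjusted p under 0.05. DESeq2 called 4, among them Cldn5, Fn1 and Tyr. The remaining one, Tac2, was chosen on this contrast, so its call is not read as a test. Of the 10 genes, 8 had enough counts to be tested, all but Vip and Cartpt, and 6 of these were not chosen on this contrast. Those 6 (Tac1, Npy, Sst, Cck, Penk and Pdyn) each had an adjusted p of 1 in edgeR. Leaving out WT replicate 1 or 2 gave 14 and 4 calls over all genes, and leaving out either Dp(10)2Yey library gave 1. Of these 6, 1 gene, Pdyn, had both Dp(10)2Yey levels below both WT levels and 0 had both above, beside 14.0% and 12.8% of all genes tested.

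Tac1, the other tachykinin precursor, lay in other cells than Tac2, and its levels overlapped between genotypes. It counted 13, 61, 50 and 58 UMIs, or 4.42, 9.08, 9.98 and 6.56 CPM. The groups overlapped, at 6.75 ± 3.29 in WT and 8.27 ± 2.42 in Dp(10)2Yey (mean ± SD, n = 2 mice each), with a log2 fold change of 0.18 (SE 0.40). Of its 182 UMIs, 106 were in 83 oligodendrocyte precursor-like cells, 21.1% of the 393 cells of that class, with at most 3 UMIs per cell. A further 72 UMIs were in 13 oligodendrocyte-like cells, 4 of which held 12 to 18 UMIs each. Those 4 cells came from 3 libraries and carried 31 to 63 UMIs of Opalin and 0 of Pdgfra. Tac1 and Tac2 were found together in 1 cell, and Tac1 had a UMI in 0 of 946 microglia-like cells.

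Within oligodendrocyte precursor-like cells the Tac1 level was 46.4, 63.0, 79.2 and 61.5 CPM, and 12.1%, 17.9%, 29.3% and 22.1% of the cells held a UMI. These shares were higher in both Dp(10)2Yey libraries, whereas with each cell thinned to 1000 UMIs they were 4.0%, 8.42%, 5.68% and 6.36% and overlapped. The CPM overlapped too, and edgeR gave a log2 fold change of 0.29 (SE 0.32, adjusted p = 0.9998). In this class 2 of 7342 genes (0.0272%) passed the threshold, Atf3 and Gm42418, named after their values were seen, and 0 passed with DESeq2, with doublets removed or with thinned sums. Without WT replicates 1 and 2 or Dp(10)2Yey replicates 1 and 2, in turn, this count was 4, 6, 19 and 1.

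**Figure D5:**
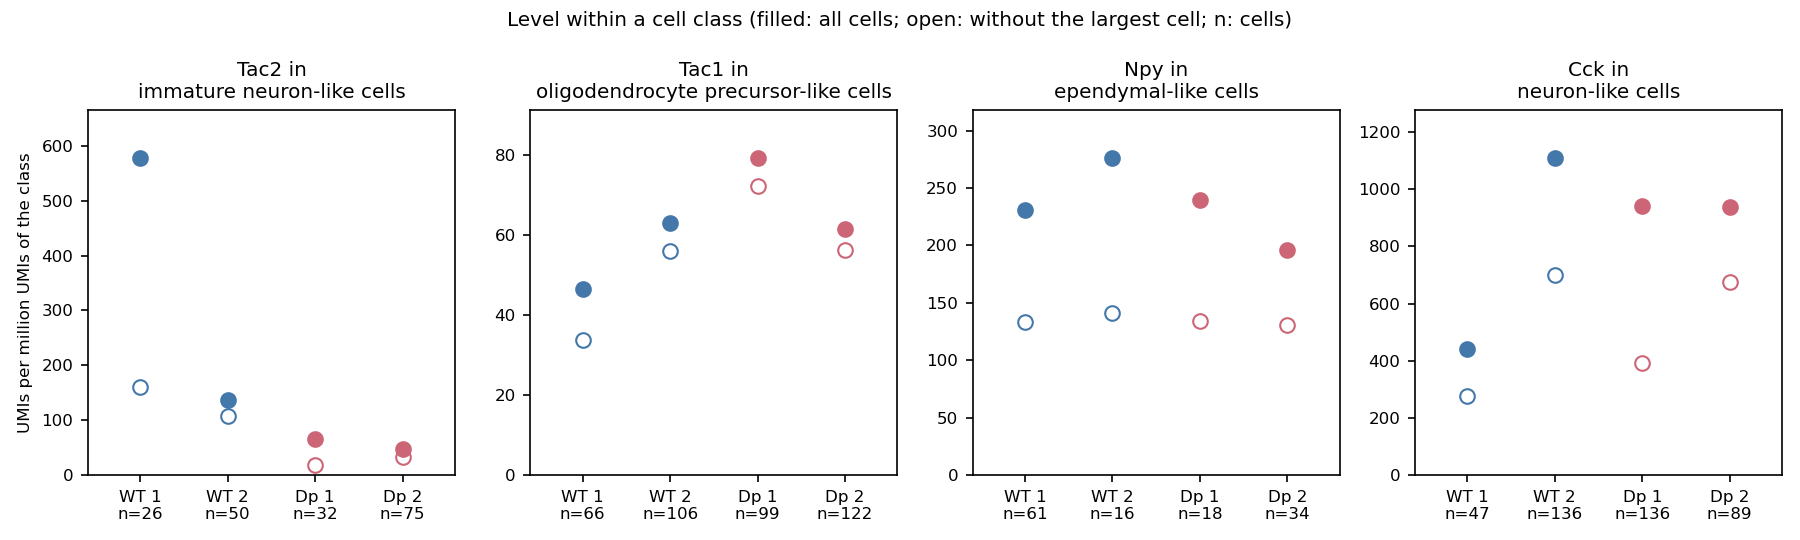
CPM of the class in each library. The panels show Tac2 in immature neuron-like cells, Tac1 in oligodendrocyte precursor-like cells, Npy in ependymal-like cells and Cck in neuron-like cells. Filled points use all cells of the class. Open points leave out the gene's UMIs in the cell with the most, with the UMI total of the class unchanged. The number of cells of the class in the library is n. Tac2 is lower in both Dp(10)2Yey (Dp) libraries, and the other 3 genes overlap between genotypes.

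Npy, the neuropeptide Y gene, was mostly an ependymal-like signal in these libraries. It counted 48, 63, 50 and 100 UMIs, or 16.3, 9.37, 9.98 and 11.3 CPM, which overlapped between WT (12.9 ± 4.92) and Dp(10)2Yey (10.6 ± 0.941), with a log2 fold change of -0.21 (SE 0.30). Of its 261 UMIs, 176 were in 45 of 129 ependymal-like cells (34.9%), 46 in 39 oligodendrocyte precursor-like cells (9.92% of the class) and 19 in 14 neuron-like cells. In microglia-like cells it was found in 3 of 946 cells (0.317%). The share of ependymal-like cells was 5.99% in WT replicate 1, which also had the highest Npy level, against 0.951%, 1.33% and 1.55% in the other libraries. By UMIs, the measure that matches CPM, the class made up 4.86%, 2.32%, 2.09% and 4.32%. Dp(10)2Yey replicate 2 was thus close to WT replicate 1. The part of the class share in the Npy level was not tested.

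Within ependymal-like cells the Npy level was 231, 276, 239 and 196 CPM over 61, 16, 18 and 34 cells. Without the Npy UMIs of the largest cell of each library, over the unchanged class total, it was 133, 141, 134 and 131. That total still includes the largest cell, which in WT replicate 2 had 37374 of the 155690 UMIs of the class. With all cells the groups overlapped, and edgeR gave a log2 fold change of -0.33 (SE 0.26, adjusted p = 0.9991). In this class 0 of 2821 genes (0%) passed the threshold in edgeR, 104 had an unadjusted p under 0.05 and DESeq2 called 0, while leaving out WT replicate 2 gave 5 calls and leaving out Dp(10)2Yey replicate 1 gave 10. In oligodendrocyte precursor-like cells, the log2 fold change of Npy was 0.19 (SE 0.49, edgeR adjusted p = 0.9998).

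Cck, the cholecystokinin gene, had the most UMIs of the 10 genes, and neuron-like cells held 1246 of its 1426 UMIs (87.4%). A Cck UMI was found in 39.7% of the 408 neuron-like cells and in 15 of the 51 cells of the cluster led by Reln (29.4%), against 18 of 946 microglia-like cells (1.90%). It counted 56, 681, 306 and 383 UMIs, or 19.1, 101, 61.1 and 43.3 CPM. The WT libraries held both the lowest and the highest level, 60.2 ± 58.2 on average against 52.2 ± 12.6 in Dp(10)2Yey, and the log2 fold change of -0.30 (SE 0.55) became 1.45 without WT replicate 2. Neuron-like cells made up 4.62%, 8.09%, 10.1% and 4.05% of the cells.

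Within neuron-like cells the Cck level was 440, 1110, 943 and 937 CPM over 47, 136, 136 and 89 cells. One cell held 161 of the 275 Cck UMIs of Dp(10)2Yey replicate 1 in this class. Without the largest cell of each library the levels were 275, 701, 391 and 674 CPM, so that each genotype had a lower and a higher library and the groups overlapped. The log2 fold change was 0.43 (SE 0.49, edgeR adjusted p = 0.9992). In neuron-like cells 0 of 5010 genes (0%) passed the threshold in edgeR, 163 had an unadjusted p under 0.05 and DESeq2 called 0. Without WT replicates 1 and 2 or Dp(10)2Yey replicates 1 and 2, in turn, edgeR called 4, 9, 19 and 163 genes.

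Sst, the somatostatin gene, was sparse. It counted 3, 22, 9 and 32 UMIs, or 1.02, 3.27, 1.80 and 3.62 CPM, with WT at 2.15 ± 1.59 and Dp(10)2Yey at 2.71 ± 1.29. The groups overlapped, with a log2 fold change of 0.21 (SE 0.60). Leaving out WT replicate 1 made it -0.22, and leaving out Dp(10)2Yey replicate 2 made it -0.37. Of its 66 UMIs, 29 were in 22 neuron-like cells (5.39% of them), 12 in 6 astrocyte-like cells and 7 in 6 cells of the cluster led by Aldoc. Within neuron-like cells it counted 1, 10, 7 and 11 UMIs, or 11.0, 18.5, 24.0 and 31.0 CPM, higher in both Dp(10)2Yey libraries. Without the largest cell of each library these were 0, 14.8, 17.1 and 16.9 CPM. The microglia-like background was 1 of 946 cells (0.106%).

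The opioid precursors were also few. Penk, the proenkephalin gene, counted 2, 40, 5 and 24 UMIs, or 0.681, 5.95, 0.998 and 2.72 CPM, so that replicates 2 of both genotypes were high. Its log2 fold change was -0.95 (SE 0.77) and became 1.50 without WT replicate 2 and -0.097 with the sums thinned to the smallest library. The cluster led by Reln, Ndnf and Lhx1, genes known from Cajal-Retzius neurons, held 36 of its 71 UMIs in 7 of 51 cells (13.7%), with 0, 21, 4 and 11 UMIs by library, and neuron-like cells held 21 in 15 cells. One cell of that cluster held 19 Penk UMIs.

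Pdyn, the prodynorphin gene, counted 6, 14, 3 and 14 UMIs. The levels were 2.04 and 2.08 CPM in WT and 0.599 and 1.58 in Dp(10)2Yey, or 2.06 ± 0.029 against 1.09 ± 0.697 (mean ± SD, n = 2 mice each). Both Dp(10)2Yey libraries were below both WT libraries, with a pooled ratio of Dp(10)2Yey to WT of 0.593 and a log2 fold change of -0.82 (SE 0.60). The 95% counting interval of the ratio, 0.292 to 1.19, includes equal levels. It leaves out the spread between mice and is not a test of genotype. Pdyn had no cell with 5 or more UMIs. Of its 37 UMIs, 14 were in 12 neuron-like cells and 13 in 10 astrocyte-like cells.

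Vip, which marks disinhibitory interneurons, counted 0, 2, 1 and 0 UMIs, at or under the 3 counts that a 0 allows, and Cartpt, which encodes the CART precursor, counted 1, 2, 1 and 3. No fold change is given for either. The 7 Cartpt UMIs were in 5 neuron-like cells, and 2 of the 3 Vip UMIs were in neuron-like cells and 1 in an astrocyte-like cell.

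Cells with at least 5 UMIs of a gene numbered 37 for Cck, 12 for Npy, 8 for Tac2, 4 for Tac1, 3 for Npb, 3 for Penk and 2 for Sst, 69 in all with a cell counted once for each gene. Of the 8 Tac2 cells, 3 were in each WT library and 1 in each Dp(10)2Yey library. All 3 Npb cells were in Dp(10)2Yey libraries.

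Other genes of peptide signalling did not pass the test in either direction. Of 20 receptor genes for these peptides, 4 had no UMI, among them Npbwr1, a receptor of neuropeptide B, and Tacr1, the substance P receptor. Tacr3, the neurokinin B receptor, had 6 UMIs. Of the 20, 5 had enough counts to be tested and 0 passed, with 2 at an unadjusted p under 0.05 and a median log2 fold change of -0.41 beside -0.01 over all genes. Npy1r was at -1.92 (SE 0.63), Npy2r at -1.53 (SE 0.53) and Sstr1 at -0.41 (SE 0.78), each with an adjusted p of 1 in edgeR. Of 15 genes of precursor processing and granins, 14 were tested and 0 passed, with a median of -0.05. They include Cpe, the carboxypeptidase that trims peptide ends, at 0.39 (SE 0.16), Pcsk1n, an inhibitor of the prohormone convertase PC1, at 0.21 (SE 0.18), and Scg3, a granin, at 0.18 (SE 0.13). Of 12 peptide-degrading enzymes, 9 were tested and 0 passed, with a median of 0.05.

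Markers of the neuron kinds that could carry these peptides also gave 0 calls in the main edgeR fits, which use no block. The GABAergic list had 13 of 16 genes tested and a median log2 fold change of -0.21, the glutamatergic list 12 of 12 with -0.08, the Cajal-Retzius list 7 of 8 with -0.55 (all 7 below 0) and the mature neuron list 18 of 18 with -0.18. By library, GABAergic markers summed to 597, 591, 484 and 544 CPM and Cajal-Retzius markers to 204, 134, 97.4 and 142. Cnr1, abundant in the largest Tac2 cell and named after its value was seen, was at 5.44, 68.0, 8.19 and 9.50 CPM. WT replicate 2, whose 58-UMI Tac2 cell alone held 361 Cnr1 UMIs, thus stood above the other 3 libraries. In neuron-like cells, edgeR with the replicate block called Cnr1, at a log2 fold change of -2.59 (adjusted p = 1.4e-04), which the fit with no block did not. The summed GABAergic markers were lower in both Dp(10)2Yey libraries, but Maf, with 66.7% of its UMIs in the cluster led by Il1a, made up 335, 257, 237 and 273 CPM of them. Gad1, at 6.80, 11.3, 6.19 and 7.47 CPM, and Gad2, at 2.38, 6.84, 4.19 and 6.00 CPM, overlapped between genotypes, as did the Cajal-Retzius sums. Slc32a1, at 1.70, 7.29, 1.40 and 1.02 CPM, and Reln, at 26.2, 22.9, 14.6 and 18.4 CPM, were lower in both Dp(10)2Yey libraries. The 58-UMI Tac2 cell held 32 of the Slc32a1 UMIs of WT replicate 2. The part of these lower levels in the Tac2 level was not tested.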

How the data were processed

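The authors deposited raw UMI counts per gene and barcode for 4 libraries, made with Cell Ranger 3.0.2 against a custom mm10 (GRCm38) reference from cells that Cell Ranger called. Of 6464 barcodes, 6281 had at least 200 genes, as the study required. Another 32 with over 20% globin UMIs were removed as red blood cells, a rule set after the data were seen because clustering did not isolate them. Scrublet (scanpy 1.11.5) called 53 doublets, which were kept, as were 533 cells over 20% mitochondrial UMIs. Clusters were built in Seurat 5.3.0 (2000 variable genes per library, with the 10 genes left out, 50 dimensions, resolution 0.2) and named where at least 3 of 10 leading genes were markers of 1 class. Names may differ from the study's. Levels are CPM, UMIs per 1000000 UMIs of the kept cells. Sums per library were tested in edgeR 4.0.16 (R 4.3.3, TMM, filterByExpr, quasi-likelihood, no block, adjusted p under 0.01), and this fit was also run on simulated counts with known changes. Counting intervals of a ratio are conditional Poisson intervals at a level of 0.95. The oligodendrocyte precursor-like and ependymal-like fits were added after it was seen where Tac1 and Npy lie. The 10 genes and all lists were chosen with earlier results of these data known. Named genes are the 10, the 5 of highest phi with Tac2 and with Npb (a UMI in at least 10 cells), and up to 3 tested genes of highest summed level per list. Other genes, among them the markers given for Tac2 and Npb cells and the receptors other than Npy1r, Npy2r and Sstr1, were named after their values were seen. Gene positions are from GENCODE M21. Alternatives are DESeq2 1.42.0, other scaling, no count filter, a replicate block, removal of doublets or of cells over 20% mitochondrial UMIs, thinned sums, and each library left out.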

Additional observations from a re-analysis of the deposited data

How the results depend on the processing

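Genes called with all cells summed, 0 in edgeR, were 4 with DESeq2, 88 with no filter on low counts and 1 to 14 with 1 library left out. In neuron-like cells, 0 became 9 with no filter, 2 with a replicate block, and 4 to 163 with 1 library left out, the last without Dp(10)2Yey replicate 2. In oligodendrocyte precursor-like cells, 2 became 0 with DESeq2, with doublets removed and with thinned sums, 7 with RLE scaling or no filter, 11 with a replicate block, 9 at a threshold of 0.05, and 1 to 19 with 1 library left out. In ependymal-like cells, 0 became 3 with no filter and 0 to 10 with 1 library left out. The cause was not tested. Same-numbered libraries did not deviate together (r = -0.006 over 9523 genes), so they were not treated as pairs. Whether they share a day is not known. With all cells summed, the replicate block gave 0 calls, and in neuron-like cells it called Cnr1 and Nnat.

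The share of cells with a UMI of any of the 10 genes was 4.77% at 1000 UMIs per cell, 2.98% at 500 and 9.92% unthinned. Cells with at least 5 UMIs of a gene, counted once for each gene, were 69, against 111 at 3 UMIs and 34 at 10. The log2 fold change of Tac2 was -2.49 with thinned sums and -3.04 to -2.69 with 1 library left out, and its ratio of WT to Dp(10)2Yey, 7.07, was 5.14 without the largest cells. The log2 fold change of Npb was 3.70 to 4.82 with 1 library left out. Both genes were chosen for differing in both Dp(10)2Yey libraries. Their direction with 1 library left out was therefore fixed by the choice and is no sign of stability. Pdyn ranged from -1.72 to -0.40. Signs turned for Tac1 without WT replicate 1 (-0.16) or Dp(10)2Yey replicate 1 (-0.14), Npy without WT replicate 1 (0.19), Sst without WT replicate 1 (-0.22) or Dp(10)2Yey replicate 2 (-0.37), Cck and Penk without WT replicate 2 (1.45 and 1.50), Cck in neuron-like cells without WT replicate 1 (-0.034), and Npy in oligodendrocyte precursor-like cells without WT replicate 2 (-0.34) or Dp(10)2Yey replicate 1 (-0.026). Leaving 1 library out gave ranges of -0.16 to 0.88 for Tac1, -0.61 to 0.19 for Npy, -0.37 to 1.44 for Sst, -0.96 to 1.45 for Cck, -1.87 to 1.50 for Penk, -0.034 to 1.20 for Cck in neuron-like cells and -0.34 to 0.64 for Npy in oligodendrocyte precursor-like cells. The lone library of a genotype is then assumed to vary like the other group. Thinned sums brought Penk to -0.097. Of all settings of these fold changes, 10 reversed. In the settings run, 0 of the 6 genes not chosen on this contrast passed the threshold.

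Depth limits these statements: 8 of the 10 genes had under 200 UMIs over 4 mice, Vip and Cartpt could not be compared, and 1 cell can set the level of Tac2 or Npb in a library.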

Other observations

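Of 23 other neuropeptide genes, 5 had enough counts to be tested between genotypes and 0 passed edgeR's adjusted threshold, with a median log2 fold change of -0.41 and all 5 below 0. Nppc, which encodes C-type natriuretic peptide, had 58.0% of its 231 UMIs in oligodendrocyte-like cells, Nmb, which encodes neuromedin B, had 34.8% of 178 in ependymal-like cells, and Pomc, the precursor of melanocortins and beta-endorphin, was spread widely, with 26.6% of 203 in the cluster led by Il1a. Pnoc, the nociceptin precursor, named after its values were seen, had 67.6% of 71 UMIs in the cluster led by Reln, and its level was 3.74 and 4.61 CPM in WT and 1.80 and 2.26 in Dp(10)2Yey, with a log2 fold change of -1.05 (SE 0.43, edgeR adjusted p = 1). Grp, the gastrin-releasing peptide gene, also named after its values were seen, had 79.3% of 87 UMIs in neuron-like cells.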
